A study of Rattus norvegicus with 12 samples.

Results

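The uptake carriers of the SLC22 family described here are Slc22a6, Slc22a8, Slc22a7, Slc22a2 and Slc22a5, 5 of the 35527 genes and transcripts on the array, measured in rat kidney cortex 24 h after a dose of cephaloridine. Cephaloridine is a cephalosporin antibiotic that injures the proximal tubule. The genes were chosen by name, as carriers of organic anions, organic cations and carnitine, and every probe whose accession or symbol pointed to them was kept. That gave 6 probes, 2 of them for Slc22a5 and 1 for each of the others. All animals were male Fisher 344 rats, 8 weeks old, given a single intravenous injection of saline alone (control) or of cephaloridine at 150, 300 or 600 mg/kg (low, middle and high dose), with 3 animals in each of the 4 groups and 1 array per animal. Nothing in the labels sets the groups apart beyond the dose, and the RNA is that of the whole cortex with all its cell types.

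Proximal tubule cells clear drugs from the blood in a pair of steps, uptake across the basolateral membrane and exit across the brush border. Slc22a6 (OAT1) and Slc22a8 (OAT3) take up organic anions in exchange for dicarboxylates, a gradient that sodium-coupled dicarboxylate carriers and the sodium pump maintain. Cephaloridine enters by this anion route and leaves the cell slowly, and its accumulation there is what the drug is known for in the kidney. Slc22a7 (OAT2) is a further organic anion carrier, Slc22a2 (OCT2) takes up organic cations such as creatinine, driven by the membrane potential, and Slc22a5 (OCTN2) is the sodium-coupled carrier that recovers carnitine from the filtrate.

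The 12 arrays were alike in signal, with median processed signals between 59.0 and 68.6 and between 59.3% and 63.3% of probes well above background. Expression is given as scaled log2 signal, the log2 of the processed signal minus the 75th percentile of its array, so that 1 unit is a 2-fold difference and 0 is the level of that percentile. Levels of different probes cannot be ranked against each other. All 6 carrier probes were well above background on 12 of 12 arrays, with 0 saturated and 0 outlier spots. No slide carried both a control and a high-dose animal: slide 1 held controls 1 to 3 and low 1, slide 2 low 2 and middle 1, slide 3 low 3 and middle 2, and slide 4 middle 3 and high 1 to 3. For this reason the carriers' changes and the counts of the gene lists are also given with slide as a block, which reaches the control group only through single arrays of the doses in between.

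At 600 mg/kg against control, 4 of the 5 carriers fell and 1, Slc22a7, did not pass the test. Slc22a2 fell 1.60-fold, Slc22a8 1.44-fold, Slc22a5 1.43-fold and Slc22a6 1.36-fold. The test was limma with Benjamini-Hochberg adjustment over 20769 tested genes, which called 34.8% of all tested genes in either direction and 16.8% of them lower. Of all tested genes 1.95% had a lower change than Slc22a2 and 6.07% a lower change than Slc22a6. The median log2 change was -0.52 over the 5 carriers and -0.00 over all tested genes. For the 4 that fell, all 3 high-dose animals lay below all 3 controls, as was so for 27.6% of all genes. In RNA from whole cortex, fewer proximal tubule cells and less carrier RNA per cell cannot be told apart. Of the 5 carriers 1, Slc22a2, was still called lower with slide as a block, against 0.987% of all tested genes.

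**Figure D1:**
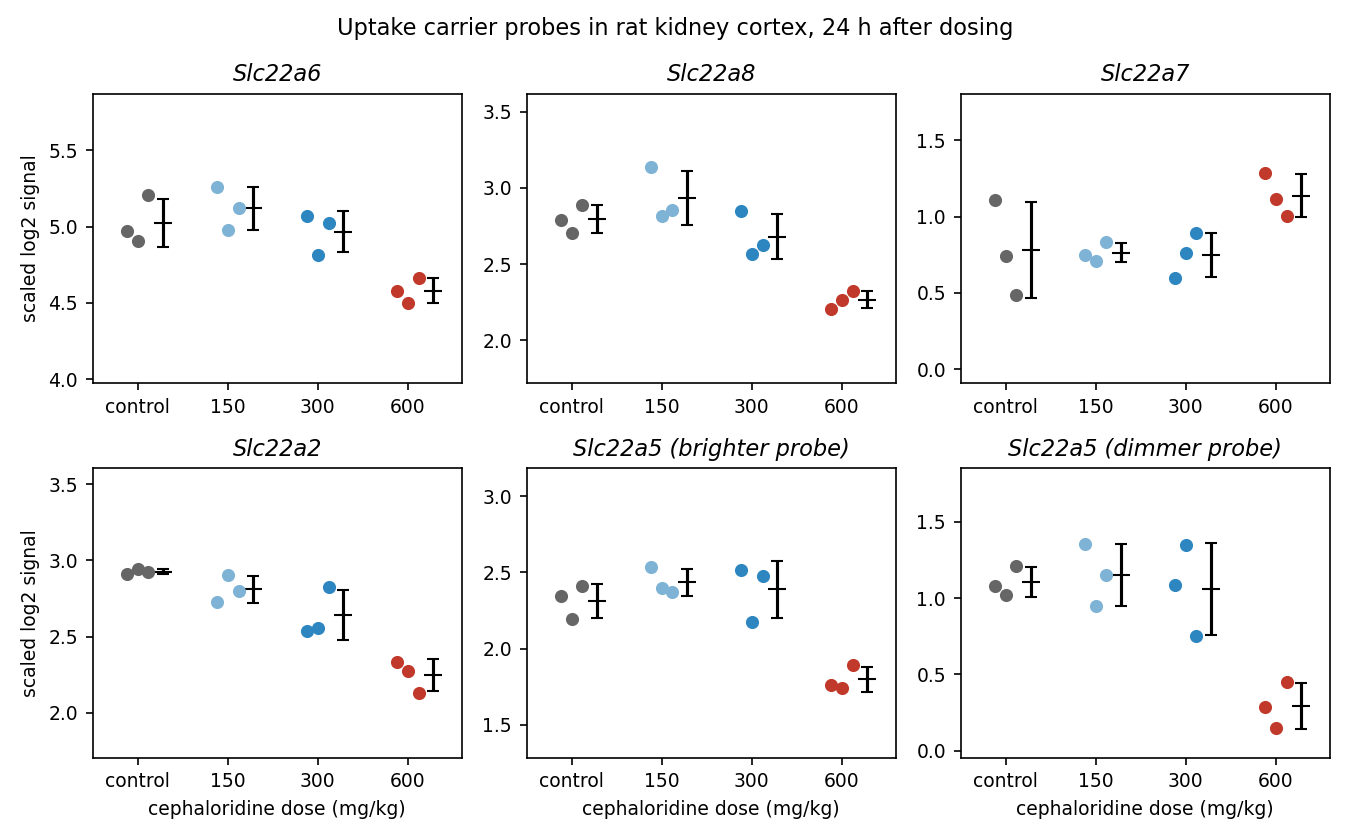
Scaled log2 signal (log2 processed signal minus the array's 75th percentile) of the 6 carrier probes against cephaloridine dose, with 1 point per animal and the mean ± SD of 3 animals beside each group. The 600 mg/kg animals lie below all controls on every probe but that of Slc22a7, and the probe of Slc22a2 has a lower mean at each higher dose.

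Among the anion carriers, Slc22a6 read 4.97, 4.90 and 5.21 in controls, 5.26, 4.98 and 5.12 at 150 mg/kg, 5.07, 4.81 and 5.02 at 300 mg/kg, and 4.58, 4.50 and 4.66 at 600 mg/kg. All 3 high-dose animals lay below the other 9, and the other groups overlapped. How many of all genes showed this split of 3 against 9 was not counted, here or for the carriers below. In processed signal the high-dose animals averaged 15824 ± 880.4 and the controls 21488 ± 2177 (SD, n = 3 each). The log2 change at 600 mg/kg was -0.45 (standard error 0.10, adjusted p = 0.00698). Blocking on slide gave -0.32 (adjusted p = 0.48, 95% interval -0.89 to 0.25). The scanner software marked the local background of this probe as an outlier on 6 arrays, among them controls 2 and 3. Without those spots, and so with a single control array, the change was -0.39 (adjusted p = 0.0521).

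Slc22a8 read 2.79, 2.71 and 2.89 in controls, 3.14, 2.82 and 2.85 at 150 mg/kg, 2.85, 2.57 and 2.63 at 300 mg/kg, and 2.21, 2.26 and 2.32 at 600 mg/kg. The high-dose animals again lay below all the others, and the single highest value came from a low-dose animal. The log2 change at 600 mg/kg was -0.53 (standard error 0.10, adjusted p = 0.00247). Blocking on slide gave -0.15 (adjusted p = 0.664, 95% interval -0.56 to 0.27). The order of the group means was the same for Slc22a8 and Slc22a6: 600 mg/kg, then 300 mg/kg, control and 150 mg/kg. In that order the step between 600 and 300 mg/kg passed the test for both genes, and the steps from 300 mg/kg to control and from control to 150 mg/kg did not.

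Slc22a7, the third anion carrier, read 1.11, 0.74 and 0.49 in controls, 0.75, 0.71 and 0.83 at 150 mg/kg, 0.60, 0.76 and 0.89 at 300 mg/kg, and 1.29, 1.12 and 1.0 at 600 mg/kg. Its high-dose mean was 1.14 ± 0.14 and its control mean 0.78 ± 0.31 (SD, n = 3 each). The difference of 0.36 did not pass (standard error 0.14, adjusted p = 0.0755), and control 1 lay within the high-dose range. Without control 1 the difference was 0.52 and passed (adjusted p = 0.0105). Blocking on slide gave 0.12 (adjusted p = 0.871, 95% interval -0.71 to 0.96), and no step in the order of the group means passed the test.

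The cation carrier Slc22a2 read 2.91, 2.94 and 2.92 in controls, 2.72, 2.90 and 2.80 at 150 mg/kg, 2.53, 2.56 and 2.83 at 300 mg/kg, and 2.33, 2.27 and 2.13 at 600 mg/kg. The controls were the tightest group of any carrier, and every dosed animal lay below every control. The share of all genes with that separation was not counted. The log2 change at 600 mg/kg was -0.68 (standard error 0.08, adjusted p = 0.000331). The slide-blocked change was -1.09 (adjusted p = 0.0216, 95% interval -1.42 to -0.76). The group means were ordered by dose, with 2.92 ± 0.02 in controls, 2.81 ± 0.09 at 150 mg/kg, 2.64 ± 0.16 at 300 mg/kg and 2.25 ± 0.10 at 600 mg/kg (SD, n = 3 each). Of the steps between neighbours in this order, the step between 600 and 300 mg/kg passed the test and the other 2 did not.

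The carnitine carrier Slc22a5 had 2 probes, and both fell at the high dose. The brighter probe, which stands for the gene, read 2.34, 2.19 and 2.41 in controls, 2.53, 2.40 and 2.37 at 150 mg/kg, 2.52, 2.17 and 2.47 at 300 mg/kg, and 1.76, 1.74 and 1.89 at 600 mg/kg. On this probe the high-dose animals lay below the other 9, and the log2 change at 600 mg/kg was -0.52 (standard error 0.10, adjusted p = 0.00262). The slide-blocked change was -0.50 (adjusted p = 0.203, 95% interval -0.96 to -0.03). On the dimmer probe the high-dose animals read 0.28, 0.15 and 0.45 and the controls 1.08, 1.02 and 1.21. Its log2 change was -0.81 (standard error 0.15, adjusted p = 0.00267 over 24741 probes tested singly), and its 95% interval, -1.14 to -0.48, took in the -0.52 of the brighter probe. On the brighter probe the high-dose mean was the lowest, followed by control, 300 mg/kg and 150 mg/kg, and only the step from 600 mg/kg to control passed the test. On the dimmer probe 300 mg/kg (1.06 ± 0.30) came before control (1.10 ± 0.10, SD, n = 3 each).

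**Figure D2:**
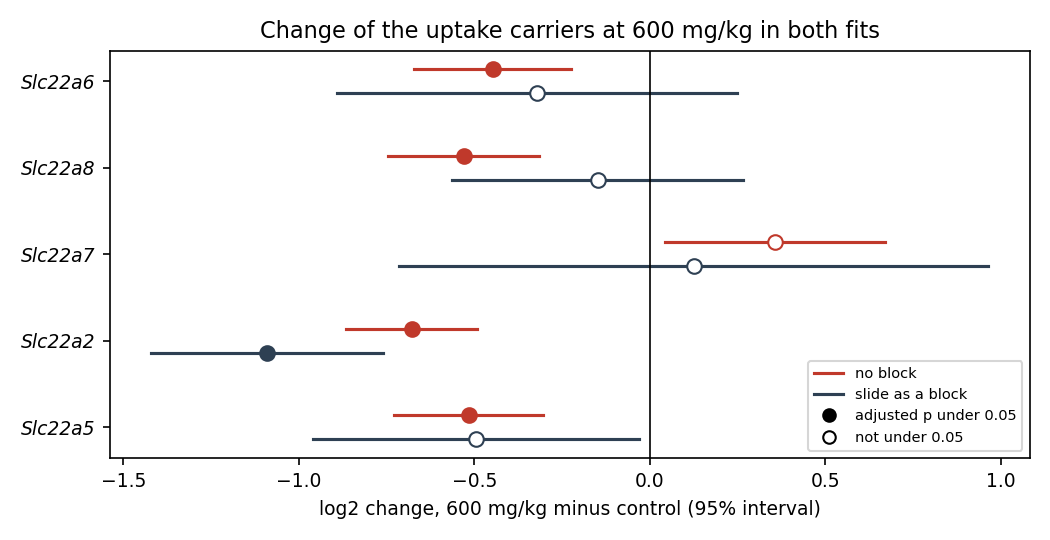
Log2 change of each carrier at 600 mg/kg minus control (x axis) with its 95% interval from limma, without a block (red) and with slide as a block (dark blue). Filled points had an adjusted p under 0.05. Without a block 4 of the 5 carriers are filled, and with slide as a block Slc22a2 is.

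At 300 mg/kg against control, 0 of the 5 carriers passed, where limma called 13% of all tested genes. Slc22a2 came nearest, with a log2 change of -0.29 (standard error 0.08, adjusted p = 0.0504). All 3 of its middle-dose values lay below all 3 control values, as was the case for 12.3% of all genes in that direction. Its slide-blocked change was -0.51 (adjusted p = 0.109, 95% interval -0.77 to -0.25). The call changed with the processing: it passed after quantile normalization (-0.34, adjusted p = 0.0315), after normexp background correction (-0.27, adjusted p = 0.0329), over probes well above background on all arrays (adjusted p = 0.044) and without middle 3 (-0.38, adjusted p = 0.0169). Slc22a6, Slc22a8, Slc22a7 and Slc22a5 had changes of -0.06, -0.12, -0.03 and 0.07 (adjusted p from 0.458 to 0.909).

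At 150 mg/kg against control, 0 of the 5 carriers passed, and limma called 0.101% of all tested genes. The log2 changes ran from -0.12 for Slc22a2 to 0.14 for Slc22a8 (adjusted p from 0.676 to 0.983). Blocking on slide gave -0.20 for Slc22a2 (adjusted p = 0.699) and 0.34 for Slc22a8 (adjusted p = 0.564), again the lowest and the highest, and 0 carriers passed. Slc22a2 was the only carrier whose 3 low-dose animals all lay below the 3 controls, a separation that 8.81% of all genes showed in that direction. Between 300 and 150 mg/kg, 0 of the 5 carriers passed (background 0.231%), with differences from -0.25 for Slc22a8 (adjusted p = 0.25) to -0.01 for Slc22a7. Blocking on slide gave -0.13 for Slc22a8 (adjusted p = 0.468) and -0.31 for Slc22a2 (adjusted p = 0.115), and 0 carriers passed.

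The comparison of 600 with 300 mg/kg shares its high-dose animals with the comparison of 600 mg/kg with control. Here 4 of the 5 carriers were lower at 600 mg/kg, with 22.5% of all tested genes called and 12.9% called lower. Slc22a5 differed most, by -0.59 (standard error 0.10, adjusted p = 0.00209), followed by Slc22a8 at -0.42 (adjusted p = 0.0129), Slc22a2 at -0.39 (adjusted p = 0.0084) and Slc22a6 at -0.39 (adjusted p = 0.0204). The call of Slc22a6 was lost without any of 4 single arrays: the difference was -0.34 without middle 1 (adjusted p = 0.0646), -0.36 without middle 3 (adjusted p = 0.0536), -0.39 without high 1 (adjusted p = 0.0569) and -0.35 without high 2 (adjusted p = 0.0709). It was also lost with no filter on dim probes (adjusted p = 0.0537) and without spots with a background outlier mark (adjusted p = 0.0556), and that of Slc22a2 with only the compared groups (adjusted p = 0.0534). For Slc22a7 all high-dose values lay above all middle-dose values, as was so for 15.5% of all genes, and the difference of 0.39 did not pass (adjusted p = 0.0761). With slide as a block Slc22a2 (-0.58, adjusted p = 0.0101) and Slc22a5 (-0.67, adjusted p = 0.0188) were called lower, against 4.81% of all genes. Slc22a8 (-0.36, adjusted p = 0.0761) and Slc22a6 (-0.44, adjusted p = 0.102) were not.

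Within single slides the carriers could be compared without any difference between slides, but with 1 array on at least 1 side. The differences on slides 1 and 4 are those that the slide block gives for 150 mg/kg against control and 600 against 300 mg/kg, and those on slides 2 and 3, with 1 array on each side, have no test of their own. Slc22a2 was lower at the higher dose on all 4 slides. Its differences were -0.20 for low 1 minus the controls, -0.37 for middle 1 minus low 2, -0.24 for middle 2 minus low 3 and -0.58 for the high-dose animals minus middle 3. The share of all genes that kept the same sign on all 4 slides was not counted. Slc22a6 and Slc22a8 had positive differences on slide 1 (0.23 and 0.34) and slide 2 (0.09 and 0.03) and negative ones on slide 3 (-0.31 and -0.29) and slide 4 (-0.44 and -0.36). Slc22a5 followed the same signs, at 0.22, 0.12, -0.20 and -0.67. The 5th and 95th percentiles of all genes on slide 4 were -0.41 and 0.49: Slc22a6, Slc22a2 and Slc22a5 lay below the lower bound, and Slc22a8 and Slc22a7 (0.25) lay between the bounds. On slide 1 the percentiles were -0.31 and 0.25, and Slc22a8 lay above the upper bound. The values of Slc22a2 on slides 1 to 3 lay between the bounds, which were -0.42 and 0.34 on slide 2 and -0.46 and 0.39 on slide 3.

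**Figure D3:**
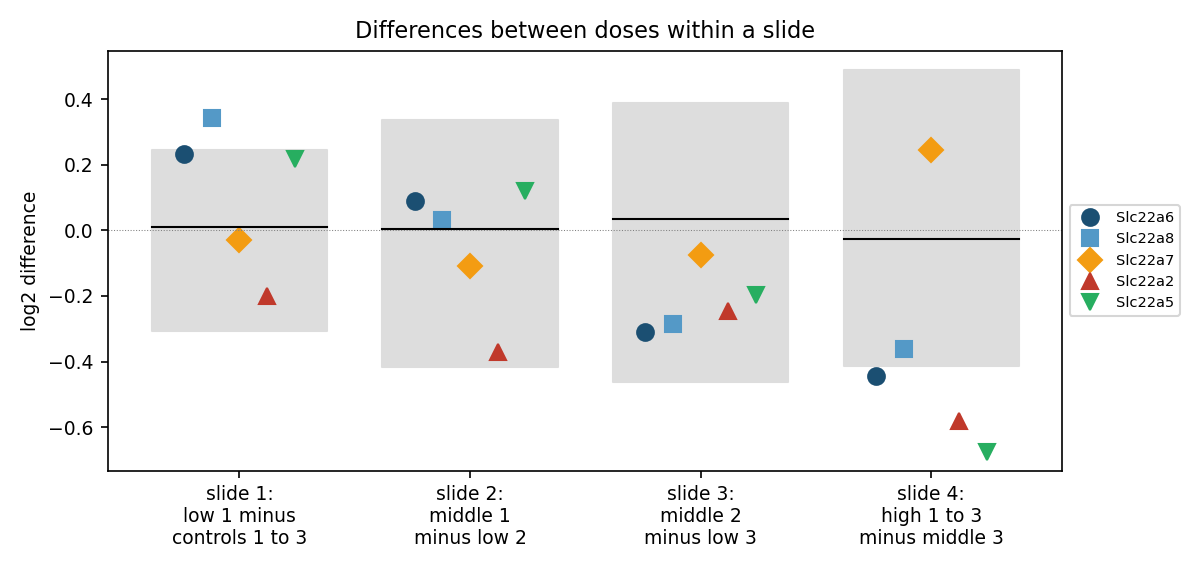
Log2 difference between doses within each of the 4 slides for the 5 carriers, with the higher dose first. Grey boxes span the 5th to the 95th percentile of all tested genes and the black line their median. Slc22a2 is below 0 on all 4 slides, and on slide 4 every carrier but Slc22a7 is below 0. The share of all genes below 0 on all 4 slides was not counted.

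The proximal promoters of the carriers are shown because Slc22a8, Slc22a2 and Slc22a5 fell together at the high dose and Slc22a7 did not pass the test. The sequences are the 250 bases before the annotated start in RefSeq (GRCr8), 5′ to 3′ on the gene's strand, available here for 4 of the 5 genes. They lie at chr1:214927034-214927283 on the plus strand for Slc22a8, chr1:50711020-50711269 on the minus strand for Slc22a2, chr10:38536073-38536322 on the minus strand for Slc22a5 and chr9:22045248-22045497 on the plus strand for Slc22a7. Capitals mark CG dinucleotides, the sites of DNA methylation.
Slc22a8: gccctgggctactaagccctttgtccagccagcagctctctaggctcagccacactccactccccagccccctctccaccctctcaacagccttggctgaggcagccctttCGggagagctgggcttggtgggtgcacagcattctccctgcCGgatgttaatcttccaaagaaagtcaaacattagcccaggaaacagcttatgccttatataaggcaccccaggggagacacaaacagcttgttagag
Slc22a2: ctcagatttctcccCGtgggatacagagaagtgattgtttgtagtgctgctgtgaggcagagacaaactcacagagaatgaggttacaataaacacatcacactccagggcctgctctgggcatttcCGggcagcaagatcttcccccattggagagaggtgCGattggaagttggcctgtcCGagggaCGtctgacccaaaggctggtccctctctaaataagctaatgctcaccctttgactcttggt
Slc22a5: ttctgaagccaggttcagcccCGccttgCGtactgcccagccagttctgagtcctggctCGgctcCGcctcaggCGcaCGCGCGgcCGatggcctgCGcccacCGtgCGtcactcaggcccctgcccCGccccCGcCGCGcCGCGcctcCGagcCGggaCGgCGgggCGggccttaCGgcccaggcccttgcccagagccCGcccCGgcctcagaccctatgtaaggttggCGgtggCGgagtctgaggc
Slc22a7: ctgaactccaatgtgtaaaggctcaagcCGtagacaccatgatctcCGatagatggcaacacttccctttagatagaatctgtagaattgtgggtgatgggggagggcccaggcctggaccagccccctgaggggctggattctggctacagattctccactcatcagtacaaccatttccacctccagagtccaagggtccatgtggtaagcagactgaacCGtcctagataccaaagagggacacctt
The Slc22a5 promoter differed most in composition, with 74.4% G and C and 28 CG dinucleotides, more than 93.2% of all 33469 promoters of that length. Slc22a8, Slc22a2 and Slc22a7 had 2, 5 and 3 CG dinucleotides, against a median of 5 over all promoters. None of the 4 held the exact letters CAAAGTCCA, 1 form of a site bound by HNF4, on either strand, and 0.338% of all promoters did. With so few promoters holding these letters, their absence from the 4 cannot show whether HNF4 sites are present. Other forms of the site were not searched. The exact letters TATAAA, 1 form of the TATA box, were likewise in none of the 4 on either strand and in 12.931% of all promoters; other forms were not searched.

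Transcription factors and scaffolds linked to these carriers were measured too. Of 10 tested genes of this list, 4 fell at 600 mg/kg and 0 rose, with a median of -0.25. Of all tested genes 34.8% were called in either direction and 16.8% lower. Hnf4a, a nuclear receptor of proximal tubule and liver, fell by 0.46 on the log2 scale (adjusted p = 0.000147; -0.54, adjusted p = 0.0465 with slide as a block). Rxra, a partner of many nuclear receptors, and Pdzk1, a brush border scaffold, fell too (-0.43, adjusted p = 0.00747, and -0.32, adjusted p = 0.00143). Their slide-blocked changes were -0.17 and -0.26. Hnf4a was the 1 gene of this list still called with slide as a block, where 0.987% of all tested genes were called lower.

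Other carriers of the family went both ways. Of 10 other tested SLC22 genes, 5 fell and 1 rose at 600 mg/kg, with a median of -0.18. For this list and the next, the shares of all tested genes were 34.8% called and 16.8% called lower. Slc22a23 (-0.69, adjusted p = 0.00697) and Slc22a25 (-0.53, adjusted p = 3.86e-05) fell most, and Slc22a15 and Slc22a17 fell by 0.52 and 0.29. Slc22a12, the urate exchanger of the brush border, was the 1 gene that rose (0.35, adjusted p = 0.00229). Of 10 tested organic anion carriers of the SLCO family, 3 fell and 0 rose, with Slco1a6 (-0.38, adjusted p = 0.00635) and Slco1a1 (-0.31, adjusted p = 0.0322) lowest. With the slide block 0 of the other SLC22 genes and 3 SLCO genes were called lower, against 0.987% of all tested genes. The 3 were Slco1a1 (-0.86, adjusted p = 0.0358), Slco1a6 (-0.80, adjusted p = 0.0372) and Slco1a5 (-0.87, adjusted p = 0.043). Without the block Slco1a5 had a change of -0.21 (adjusted p = 0.232). Slco1a3 was called without the block (adjusted p = 0.0413) and not with it (adjusted p = 0.0586). Genes of the Slco1a cluster are close in sequence, so that the probe of 1 can take up signal of another.

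Of 10 tested genes that maintain the dicarboxylate gradient, 3 fell and 0 rose at 600 mg/kg, with a median of -0.05, where 34.8% of all tested genes were called. Slc13a2, the sodium-dicarboxylate carrier of the brush border, fell by 0.35 (adjusted p = 0.00232), Slc25a10, the mitochondrial dicarboxylate carrier, by 0.31 (adjusted p = 0.0145) and Slc13a3, the basolateral dicarboxylate carrier, by 0.22 (adjusted p = 0.0232). The sodium pump subunit Atp1b1 had a change of 0.07 and did not pass (adjusted p = 0.243). None of the 10 was called with slide as a block, which gave -0.48 for Slc13a2, -0.06 for Slc25a10 and -0.02 for Slc13a3.

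Exit carriers of the brush border moved in the other direction on balance: of 8 tested, 4 rose and 1 fell at 600 mg/kg, with a median of 0.40. The share of all tested genes called in either direction was 34.8%. Abcc2, the exporter of conjugates, rose 7.98-fold (log2 3.00, adjusted p = 5.3e-07), and Abcb1b, a P-glycoprotein, rose by 0.68 (adjusted p = 0.00243; 0.13, adjusted p = 0.79 with slide as a block). Slc17a1 and Slc17a3, phosphate and anion carriers of the brush border, were the other 2 that rose (0.49 and 0.45). Slc47a1 (MATE1), through which cations taken up by Slc22a2 leave the cell, was the 1 that fell (-0.43, adjusted p = 0.00252; -0.38, adjusted p = 0.262 with slide as a block). Abcc2 and Slc17a1 were still called higher with slide as a block. At 300 mg/kg, where no carrier of the uptake group passed, 4 of the 8 exit carriers were higher, Abcc2 by 2.11. Of all 20769 tested genes 1708 were called higher at that dose. With slide as a block 1 of the 8, Abcc2, was called higher at 300 mg/kg.

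Genes of carnitine supply and use, the substrate side of Slc22a5, went both ways. Of 8 tested, 3 rose and 2 fell at 600 mg/kg, with a median of 0.03, where 34.8% of all tested genes were called. The carnitine palmitoyltransferases Cpt1b and Cpt1a, which load fatty acids onto carnitine, rose by 0.60 (adjusted p = 0.000452) and 0.26 (adjusted p = 0.00374). Tmlhe and Aldh9a1, enzymes of carnitine synthesis, fell by 0.24 (adjusted p = 0.00315) and 0.19 (adjusted p = 0.0189). None of the 8 was called with slide as a block.

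**Figure D4:**
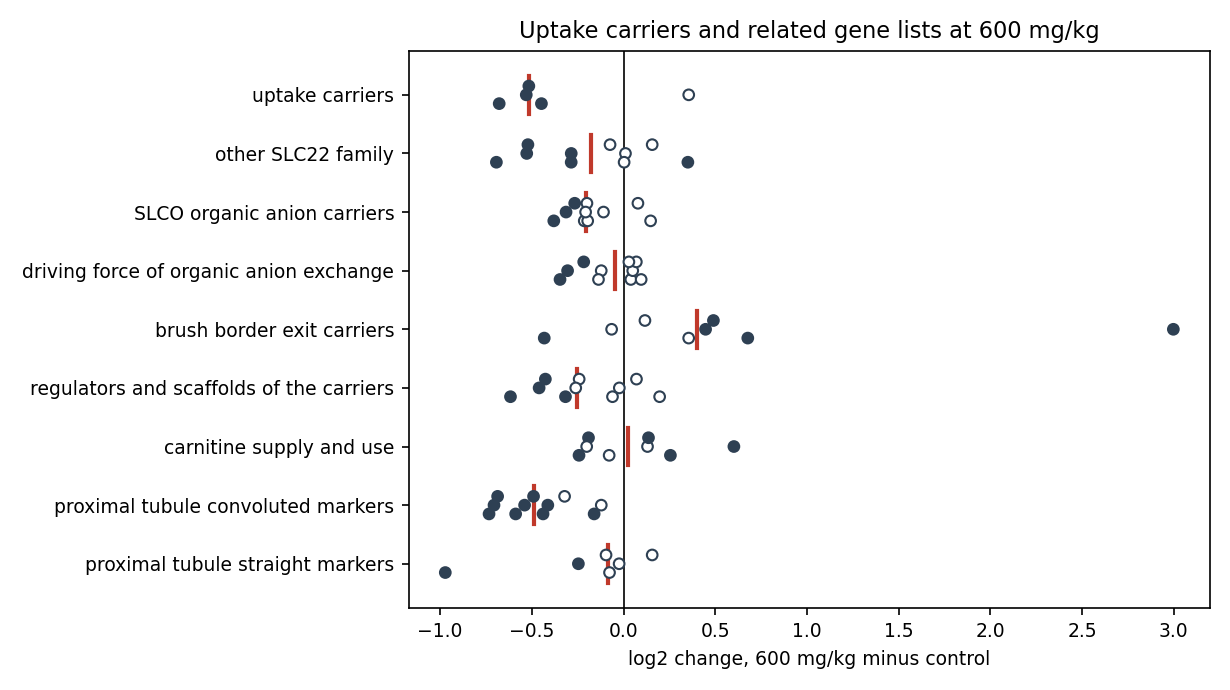
Log2 change at 600 mg/kg minus control of the uptake carriers and 8 related gene lists, with 1 point per tested gene, filled where the adjusted p was under 0.05, and a red bar at each list's median. The uptake carriers and the convoluted tubule markers have medians of -0.52 and -0.49, and the brush border exit carriers one of 0.40.

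Markers of the proximal tubule, where these carriers act, were set beside them. Of 11 tested markers of the convoluted proximal tubule, 9 fell and 0 rose at 600 mg/kg, with a median of -0.49. By the same test 16.8% of all tested genes were called lower. Among them Slc34a3, a phosphate carrier, fell by 0.73 (adjusted p = 0.000143) and Slc4a4, the basolateral bicarbonate carrier, by 0.71 (adjusted p = 0.00241). The slide-blocked values of the pair were -0.56 (adjusted p = 0.167) and -0.09 (adjusted p = 0.86). All 11 were well above background on every array. The mean scaled log2 signal over the 11 lay between 4.91 and 5.04 on high-dose arrays and between 5.38 and 5.46 on control arrays. With slide as a block 1 of the 11 was called lower, against 0.987% of all tested genes, and the median was -0.19. Of 6 tested markers of the straight proximal tubule 2 fell, Mpv17l (-0.97) and Acy3 (-0.25), with a median of -0.09 and means of 3.21 to 3.35 on high-dose arrays and 3.41 to 3.54 on control arrays. The slide block moved this median to -0.56, with 1 marker, Mpv17l, called lower (-0.89, adjusted p = 0.0213). The part of these markers' shift in the carriers' fall was not tested.

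Some markers of other cell types were called at 600 mg/kg too, where 34.8% of all tested genes were called in either direction and 16.8% lower. Of 9 macrophage markers 6 rose (median 0.41, means 0.70 to 0.81 on high-dose arrays and 0.31 to 0.39 on control arrays), and of 8 endothelial markers 6 fell (median -0.29, means 0.02 to 0.09 on high-dose arrays and 0.31 to 0.40 on control arrays). Of 8 markers of the thick limb and distal tubule 5 rose and 0 fell (median 0.28, means 3.25 to 3.32 on high-dose arrays and 2.92 to 3.06 on control arrays). Of 9 markers of the collecting duct 3 rose, of 6 of fibroblasts and pericytes 1 rose, and of 7 podocyte markers 2 fell. With slide as a block 1 macrophage marker and 1 marker of the thick limb and distal tubule were called higher, and none of the endothelial, collecting duct, fibroblast and podocyte markers was called; the medians were 0.30 for macrophages, -0.36 for endothelium and 0.47 for the thick limb and distal tubule. Of 11 tested tubular injury markers 6 rose, 0 fell and 5 were not called, with a median of 0.35. With slide as a block 1 of them was called higher and their median was 0.004. Havcr1, the injury molecule of the proximal tubule, rose most of these, 9.11-fold (log2 3.19, adjusted p = 0.00123). Its slide-blocked change was 2.16 (adjusted p = 0.278). The part of all these markers in the carriers' values was not tested.

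Across the 12 arrays the signals of Slc22a6, Slc22a8 and Slc22a5 ran closely together, with Pearson's r of 0.96 between Slc22a6 and Slc22a8, 0.95 between Slc22a6 and Slc22a5 and 0.92 between Slc22a8 and Slc22a5. With each dose group's mean taken off, r was 0.81, 0.86 and 0.78 for these pairs. Slc22a2 was correlated with each of the 3 at 0.75 to 0.76 over all arrays, and at -0.54 to -0.09 with the group means taken off. Values of 1 array share its RNA, labelling and scaling, and these values describe the 12 arrays only.

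The genes whose signal was most like each carrier's over the 12 arrays were taken from 11008 named genes that were tested. Slc22a8 was nearest to As3mt, the arsenite methyltransferase, at r = 0.988, followed by Dhx40 (0.973) and Susd2 (0.966). For Slc22a6 these were Susd2 (0.973), Zc3h7b (0.972) and Serpinc1 (0.971), the gene of antithrombin. Slc22a2 was nearest to Rgn, the gene of regucalcin (0.98), Cyp2c11, a male-predominant cytochrome P450 of the rat (0.977), and Basp1 (0.972). Of these Cyp2c11 fell by 2.37 on the log2 scale at 600 mg/kg (adjusted p = 0.000127, no block). Slc22a5 was nearest to Sephs1 (0.968), Pex7 (0.968), the import receptor of peroxisomes, and Slc25a15 (0.966), the mitochondrial ornithine carrier. Slc22a7 had lower values, with Asgr2 (0.909), Rbp4 (0.89), the plasma retinol carrier, and Ly6al (0.886).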

How the data were processed

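Each of the 12 arrays held 45018 spots for 41012 probes that are not controls. Per the file headers, the authors read them with Agilent Feature Extraction 9.1.3.1 in 1 colour, and the processed, mean and background signals are linear intensities. Per the file headers, other columns are marks of 0 or 1 for spots that are well above background, saturated or outliers. The deposited value table holds a linear ratio to 1 constant of each array, with a floor of 5 on the processed signal beforehand; this rule held within 0.1% for 40749 probes with 1 spot. Of its 12 columns 0 were unused, and column medians lay between 1.003 and 1.005. The genome build is not given in the sources used here.

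Values were log2 processed signals minus the 75th percentile of the array, without spots marked as feature outliers. The probe with the highest mean stood for a gene, if at least 2 arrays a group had an unmarked spot, and a gene was tested if some group had it well above background on 3 of 3 arrays. The comparisons used limma 3.58.1 (R 4.3.3) on all 12 arrays together, with 8 residual degrees of freedom, two-sided, at a Benjamini-Hochberg adjusted p under 0.05. The fit was tested on simulated data. Errors are limma standard errors or SDs, and 3 animals a group limit the precision. Slides were read from the file headers.

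The carriers and the gene lists were chosen with earlier results of these data known. Named were all carriers and, of each list, at most the 2 largest rises and 2 largest falls called at 600 mg/kg, the 3 genes most like each carrier, Havcr1 and Abcc2; other genes were named after their values were seen, and some genes of the lists are counted but not reported by name here. Alternatives were other scalings, background correction, the value table, filters, the probe rule, blocks, only the compared groups and each array left out; leaving out spots with a background outlier mark was added after seeing the data. Promoters come from the RefSeq table for GRCr8.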

Additional observations from a re-analysis of the deposited data

How the results depend on the processing

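At 600 mg/kg against control the carriers kept their direction under all 12 alternatives other than leaving out arrays. The limits lie in the slides and in 3 animals a group. With slide as a block the carriers called went to 1 of 5 at 600 mg/kg, with Slc22a6 at -0.32 (adjusted p = 0.48), Slc22a8 at -0.15 (0.664) and Slc22a5 at -0.50 (0.203), and to 2 of 5 for 600 against 300 mg/kg. At 300 mg/kg the same block gave 0.12 for Slc22a6 and 0.21 for Slc22a8, the opposite of their sign without it. As a random block (correlation 0.186) the slide left all 4 calls at 600 mg/kg. Over all genes, 7228, 2707 and 21 were called at 600, 300 and 150 mg/kg without a block, and 585, 46 and 7 with slide as a block, whose median standard error at 600 mg/kg was 0.154 in place of 0.076.

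Leaving out spots with a background outlier mark left Slc22a6 with 1 control array and -0.39 at 600 mg/kg (adjusted p = 0.0521), and gave it no value at 150 mg/kg or between 300 and 150 mg/kg. At 300 mg/kg the carriers called were 1, Slc22a2, after quantile normalization, normexp correction or with probes well above background on all arrays. Genes called at 300 mg/kg numbered 897 with no filter, 1316 with slide as a random block and 262 with only the compared groups. At 150 mg/kg they numbered 42 with normexp, 12 with no filter, 8 with scan day as a block and 0 with only the compared groups. With the authors' deposited values 2049 genes were called higher and 722 lower at 300 mg/kg, against 1708 and 999 otherwise. Slc22a7 changed sign near 0: at 300 mg/kg it was 0.00325 in the value table and 0.0207 with scan day as a block, at 150 mg/kg 0.0351 with scan day as a block, and between 300 and 150 mg/kg 0.0182 in the value table. The median change of all genes at 600 mg/kg stayed between -0.01 and 0.02 under the 4 scalings. The cause of these differences was not tested.

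With each array left out in turn, 4 to 5 carriers were called at 600 mg/kg, 0 to 1 at 300 mg/kg and 3 to 4 for 600 against 300 mg/kg. The log2 changes at 600 mg/kg ran from -0.51 to -0.36 for Slc22a6, -0.57 to -0.48 for Slc22a8, -0.72 to -0.62 for Slc22a2, -0.58 to -0.47 for Slc22a5 and 0.21 to 0.52 for Slc22a7, the highest without control 1. At 300 mg/kg Slc22a6 ran from -0.12 to 0.0309, Slc22a7 from -0.18 to 0.13 and Slc22a2 from -0.38 to -0.23. At 150 mg/kg Slc22a7 ran from -0.16 to 0.15, and between 300 and 150 mg/kg Slc22a7 ran from -0.0846 to 0.0603 and Slc22a5 from -0.11 to 0.0615. Genes called ran from 5347 to 6172 at 600 mg/kg, from 712 (without control 2; 742 without control 1) to 2715 at 300 mg/kg and from 5 (without low 2) to 46 (without low 1) at 150 mg/kg.

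The replicate numbers gave no sign of pairing the animals, though deviations from means of 3 animals cannot exclude it. Of 18 pairs of arrays with the same number, 1 had a correlation of deviations over 0.1 (range -0.225 to 0.117). In this check 2 arrays correlated best with their own number. The replicate block left 4 carriers called at 600 mg/kg and 0 at 300 mg/kg, and moved the genes called to 6713 at 600 mg/kg, 2170 at 300 mg/kg and 9 at 150 mg/kg.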

Other observations

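Carrier genes of this family lie side by side in the rat genome, and neighbours in the RefSeq order (GRCr8) were set beside the carriers; they were chosen for position, not by value, and all values are without a slide block. Slc22a8 and Slc22a6 adjoin each other on chromosome 1, with Slc22a25 on the far side of Slc22a8, and all 3 fell at 600 mg/kg (-0.53, -0.45 and -0.53). Beyond Slc22a6 lie Chrm1, a muscarinic receptor gene (-0.49, adjusted p = 0.113), and Slc3a2, the heavy chain of amino acid exchangers, which fell by 0.23 (adjusted p = 0.0279). Ust5r, beyond Slc22a25, did not pass (-0.09, adjusted p = 0.177).

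Igf2r, the second gene from Slc22a2 on chromosome 1, did not pass at 600 mg/kg (-0.15, adjusted p = 0.0766). Slc22a4, the second gene from Slc22a5 on chromosome 10, had a change of 0.01 at 600 mg/kg (adjusted p = 0.93), where Slc22a5 fell by 0.52. Dnph1, a nucleoside hydrolase gene 2 places from Slc22a7 on chromosome 9, rose by 0.75 (adjusted p = 2.68e-05), and Ttbk1, between them, did not pass (-0.10, adjusted p = 0.407).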
